A study of Mus musculus with 7 samples.

Results

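The enzymes that lengthen and desaturate fatty acids were followed in 7 mouse liver libraries through 9 genes: the elongases Elovl1, Elovl2, Elovl3, Elovl5 and Elovl6 and the desaturases Fads1, Fads2, Scd1 and Scd2. The members were taken by gene symbol from a table of 27810 genes, and all 9 were found once. Expression is given as FPKM, a fragment count corrected for the length of the transcript and for library size, so levels can be set side by side between genes. Between libraries the scale is relative, and results that change under another scaling are named. The livers came from male wild-type C57BL/6J mice, 5 weeks old at the start of a diet, called WD in the labels, of 40% fat, 20% fructose and 2% cholesterol. All 7 samples carry the model name WD-induced NASH, a fatty liver disease with inflammation. After 32 weeks of the diet each mouse received 1 tail-vein injection, and liver was collected after 40 weeks, without a statement of whether these are weeks of diet or of age. The MSC group (replicates 0, 1 and 2) received human umbilical cord mesenchymal stromal cells, and the vehicle group (replicates 1, 3 and 4) received saline. A further vehicle library, replicate 6, has the word Cancer in its treatment label and forms a separate group with no replicate. Whether that word describes the sequenced tissue is not stated, nor is the number of animals behind each library. P-values therefore measure the spread between these libraries, which may be technical.

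Long-chain fatty acids are built in the cytosol as palmitate and are then modified in the membrane of the endoplasmic reticulum. There, ELOVL proteins catalyse the condensation step that adds a pair of carbons, and desaturases use electrons from cytochrome b5 to place double bonds. ELOVL6 turns palmitate into stearate, and SCD1, the main stearoyl-CoA desaturase of liver, makes oleate and palmitoleate, which enter triglyceride and cholesteryl esters. FADS2 and FADS1 act in turn with ELOVL5 and ELOVL2 on the essential fatty acids of the diet to make arachidonate and docosahexaenoate. ELOVL1 and ELOVL3 make very long saturated and monounsaturated chains. In mouse liver Elovl3 is known for its daily rhythm and for higher levels in males than in females.

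The libraries could be checked for depth and content. For 13916 genes with 1 listed transcript, the commonest value of FPKM times transcript length within a preset range was taken as a step. It was 55.2 to 60.9 in each library and was met by only 103 to 141 of these genes. Read as the value of 1 fragment, this step corresponds to 16400000 to 18100000 fragments per library. On that reading the member value with the fewest fragments, Elovl3 in MSC replicate 0, rests on about 83 and the Scd2 values on 216 to 867. All 8 hepatocyte markers examined (Alb and Ttr among them) were above 0 in every library, with summed values of 20832 to 38767 FPKM. Mitochondrially encoded genes took 36.4% of the summed FPKM in MSC replicate 1 and 16.5% to 23.3% in the other libraries.

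Single values of the 9 genes ran from 2.31 FPKM (Scd2 in vehicle replicate 3) to 4924 FPKM (Scd1 in vehicle replicate 1), more than 3 orders of magnitude. Within a library the ratio of Scd1 to Scd2 ran from 243 to 1541. Whether some Scd1 reads were counted as Scd2 was not tested, which limits all Scd2 levels, shares and ratios given below. Scd1 ranked between 13 and 34 among all genes of a library, and Scd2, its neighbour on chromosome 19, was the lowest of the 9 in mean level. From high to low, the order of the means over the 7 libraries was Scd1, Fads2, Elovl5, Fads1, Elovl2, Elovl3, Elovl6, Elovl1 and Scd2. Scd1 exceeded Fads2, Fads2 exceeded Elovl5, Elovl5 exceeded Fads1 and Elovl1 exceeded Scd2 in 7 of 7 libraries. The neighbours in the middle were not separated beyond their spread. Fads1 exceeded Elovl2 in 6 libraries, Elovl2 exceeded Elovl3 in 6, Elovl3 exceeded Elovl6 in 3 and Elovl6 exceeded Elovl1 in 5.

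**Figure D1:**
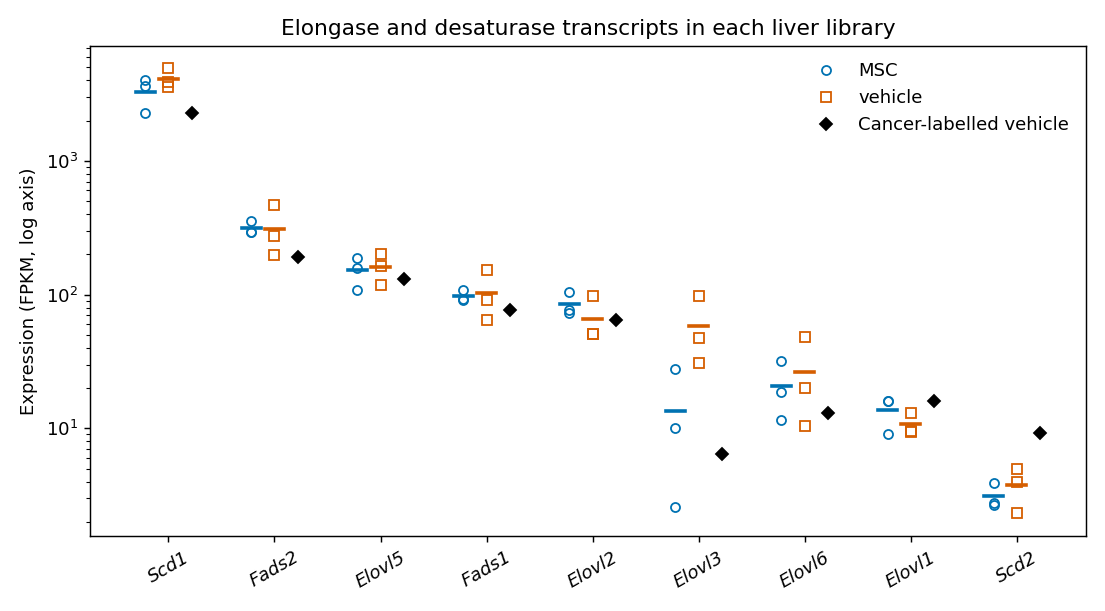
Expression of the 9 genes in FPKM on a log axis, ordered by mean level. Each symbol is 1 library (circles MSC, squares vehicle, filled diamonds the Cancer-labelled vehicle library) and bars are means of 3 libraries; Elovl3 is the gene whose MSC and vehicle symbols do not overlap.

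Of the 9 genes, 5 lie on chromosome 19 of GRCm38, in 2 clusters and a single gene. Fads2 (ENSMUSG00000024665, 10062765-10101746, minus strand) and Fads1 (ENSMUSG00000010663, 10182888-10196877, plus strand) are 81141 bases apart. Scd2 (ENSMUSG00000025203, 44293674-44306864, plus strand) and Scd1 (ENSMUSG00000037071, 44394455-44407709, minus strand) are 87590 bases apart. Elovl3 (ENSMUSG00000038754, 46131897-46135694, plus strand) lies further along. Elovl6 (ENSMUSG00000041220) is at 129532355-129634971 on chromosome 3, Elovl1 (ENSMUSG00000006390) at 118428093-118432953 on chromosome 4, Elovl5 (ENSMUSG00000032349) at 77917364-77984519 on chromosome 9 and Elovl2 (ENSMUSG00000021364) at 41182381-41220405 on chromosome 13. Exons of 3 members overlap exons of a gene on the opposite strand, and the sources used here do not say whether strand was used. Pitx3 (over Elovl3) reached 0.609 FPKM, at most 0.624% of the Elovl3 level in a library. Cdc20 (over Elovl1) reached 1.53 FPKM, at most 9.47% of Elovl1. Gm35986 (over Elovl6) reached 6.49 FPKM, between 7.85% and 32.3% of Elovl6. These ratios do not measure shared fragments, so the Elovl6 values carry an uncertainty whose size was not estimated.

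The MSC libraries were first compared with the vehicle libraries, which asks how these genes differ after cell injection. Elovl3 was the member with the largest difference: its group mean was 4.34-fold lower in MSC libraries, and every MSC library was below every vehicle library. None of the 9 genes passed the threshold of adjusted p under 0.05 in limma across 10534 genes. The same fit called 0.0190% of all genes, 0.00949% higher and 0.00949% lower. At an unadjusted p under 0.05 in limma the count was 1 of 9 members, Elovl3, and 589 of the 10534 genes tested. With 9 members, a count of 1 is not read as a result about them. The MSC and vehicle libraries did not overlap for 1 of the 9 members, which was lower in MSC libraries; 7.84% of all genes tested were lower without overlap and 2.17% higher. A count of 1 in 9 is near that background and is not read as a result about the members. The log2 difference was negative for 5 members and positive for 4, with a median of -0.09 beside -0.05 for all genes tested.

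The stearoyl-CoA desaturase Scd1 measured 2258, 3606 and 4008 FPKM in MSC replicates 0, 1 and 2. In vehicle replicates 1, 3 and 4 it measured 4924, 3563 and 3884 FPKM. MSC replicate 0 was the low library, while the other MSC values fell within or near the vehicle range. The log2(FPKM + 1) difference, MSC minus vehicle, was -0.35 ± 0.40 (SE; 95% interval -1.26 to 0.55; exact two-sided permutation p = 0.5). Scd2, an isoform better known from brain and from early life, measured 3.89, 2.79 and 2.66 FPKM in MSC libraries and 4.94, 2.31 and 3.97 FPKM in vehicle libraries. The groups overlapped, with a log2 difference of -0.18 ± 0.24 (SE; 95% interval -0.72 to 0.37; exact permutation p = 0.6).

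The share of Scd2 in the summed FPKM of Scd1 and Scd2 does not depend on how a library is scaled. It was 0.105% ± 0.058 in MSC and 0.0891% ± 0.0210 in vehicle libraries (SD, n = 3 each; exact two-sided permutation p = 0.8). MSC replicate 0, with 0.172%, stood above the other 5 libraries, which ran from 0.0648% to 0.102%.

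Fads2, which starts the desaturation of linoleate and alpha-linolenate, measured 295, 354 and 293 FPKM in MSC replicates 0, 1 and 2. In vehicle replicates 1, 3 and 4 it measured 468, 272 and 196 FPKM. Fads1, the desaturase that acts later on the elongated product, measured 91.2, 108 and 93.4 FPKM in MSC and 153, 91.0 and 65.1 FPKM in vehicle libraries. The 3 MSC libraries were close to each other for both genes, whereas the vehicle libraries spread over 2.38-fold for Fads2 and 2.35-fold for Fads1, with replicate 1 highest. The log2 difference was 0.10 ± 0.33 for Fads2 (SE; 95% interval -0.66 to 0.86; exact permutation p = 0.8). It was 0.01 ± 0.31 for Fads1 (SE; 95% interval -0.69 to 0.71; exact permutation p = 0.9).

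The 2 Fads genes kept a nearly fixed proportion. Among the 36 pairs of members, the log2 ratio of Fads1 to Fads2 had the smallest spread over the 6 MSC and vehicle libraries, with an SD of 0.055; the next pair, Fads1 and Elovl5, had 0.264. The FPKM ratio of Fads2 to Fads1 was 3.23, 3.28 and 3.14 in MSC replicates 0, 1 and 2 and 3.06, 2.99 and 3.01 in vehicle replicates 1, 3 and 4. All MSC ratios were thus above all vehicle ratios. The log2 ratio of Fads1 to Fads2 was -1.69 ± 0.031 in MSC and -1.59 ± 0.018 in vehicle libraries (SD, n = 3 each), a difference of -0.09. The exact two-sided permutation p was 0.1, the smallest that 3 against 3 libraries allow. Both genes are among each other's nearest profiles in the whole table, as given further on. That measure is nearly the same quantity taken over all 7 libraries and adds no separate support.

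**Figure D2:**
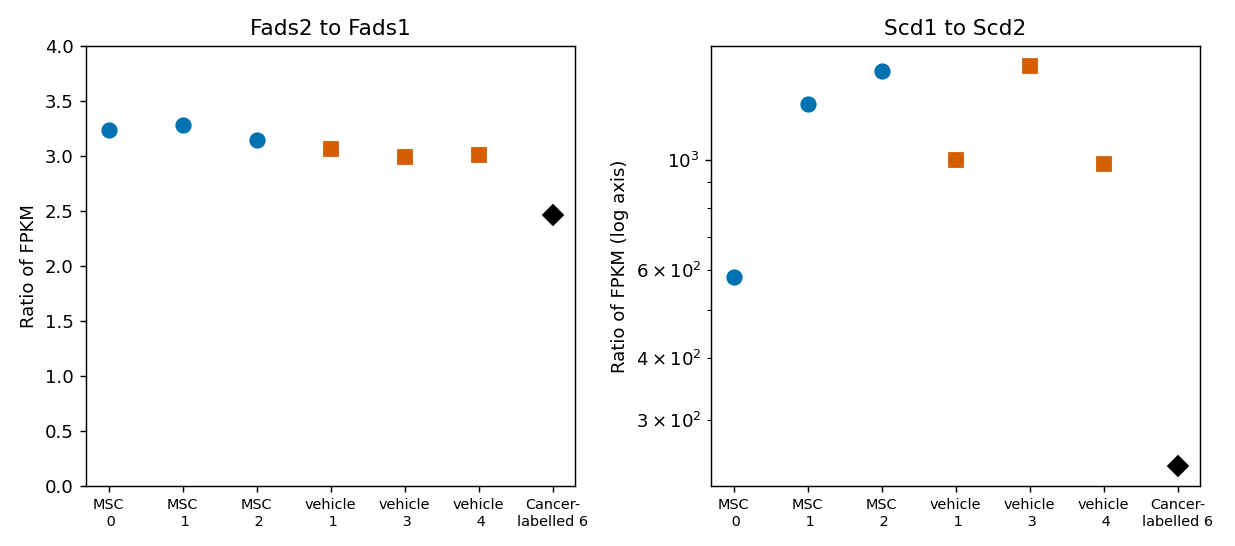
FPKM ratio of Fads2 to Fads1 (left, linear axis from 0) and of Scd1 to Scd2 (right, log axis) in each library, with circles for MSC, squares for vehicle and a diamond for the Cancer-labelled vehicle library. The Fads2 to Fads1 ratio stays between 2.99 and 3.28 in 6 libraries and is 2.46 in the Cancer-labelled one; the Scd1 to Scd2 ratio runs from 243 to 1541.

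Elovl5 and Elovl2, the elongases of polyunsaturated chains, had the highest mean levels of the 5 elongases. Elovl5 measured 108, 187 and 159 FPKM in MSC replicates 0, 1 and 2 and 199.8, 163 and 119 FPKM in vehicle replicates 1, 3 and 4. The groups overlapped over most of their range (log2 difference -0.09 ± 0.29, SE; 95% interval -0.75 to 0.57; exact permutation p = 0.7). Elovl2 measured 105, 72.7 and 77.0 FPKM in MSC libraries and 96.9, 50.8 and 50.5 FPKM in vehicle libraries. Its vehicle replicates 3 and 4 were below every MSC library and its vehicle replicate 1 was among the MSC values. The log2 difference was 0.41 ± 0.29 (SE; 95% interval -0.26 to 1.08; exact permutation p = 0.3).

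Elovl6, the elongase that follows fatty acid synthase, measured 11.5, 31.6 and 18.7 FPKM in MSC and 48.5, 20.1 and 10.4 FPKM in vehicle libraries. It varied 4.65-fold among the vehicle libraries alone, with replicate 1 highest and replicate 4 lowest. The log2 difference of -0.19 ± 0.52 has a 95% interval from -1.38 to 1.01 (SE; exact permutation p = 0.9), so a change in either direction was not detectable against this spread. Elovl1, an elongase of saturated very long chains present in most cell types, measured 15.9, 16.1 and 9.02 FPKM in MSC and 13.1, 9.55 and 9.41 FPKM in vehicle libraries. MSC replicates 0 and 1 were above all 3 vehicle libraries and MSC replicate 2 below them (log2 difference 0.30 ± 0.25, SE; 95% interval -0.26 to 0.86; exact permutation p = 0.4).

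Elovl3 was chosen for closer description with its difference already known from earlier work on these libraries. It measured 2.58, 10.04 and 27.9 FPKM in MSC replicates 0, 1 and 2 and 31.0, 97.6 and 47.2 FPKM in vehicle replicates 1, 3 and 4. The highest MSC and the lowest vehicle library are close neighbours, and the MSC libraries differ 10.8-fold among themselves. The log2 difference was -2.35 ± 0.70 (SE; 95% interval -3.94 to -0.76), with an adjusted p of 0.646 in limma over all genes and an exact two-sided permutation p of 0.1, the smallest possible. With libraries centred on their medians, the groups overlapped and no member was separated. Elovl3 had a pooled within-group SD of 1.21 on the log2 scale, larger than in 99.5% of the genes tested. Elovl6 followed with 0.895, larger than in 98.5%, and the other members ran from 0.345 to 0.460 beside a median of 0.239 for all genes. In these bulk samples, fewer cells of a type and less RNA per cell cannot be told apart.

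**Figure D3:**
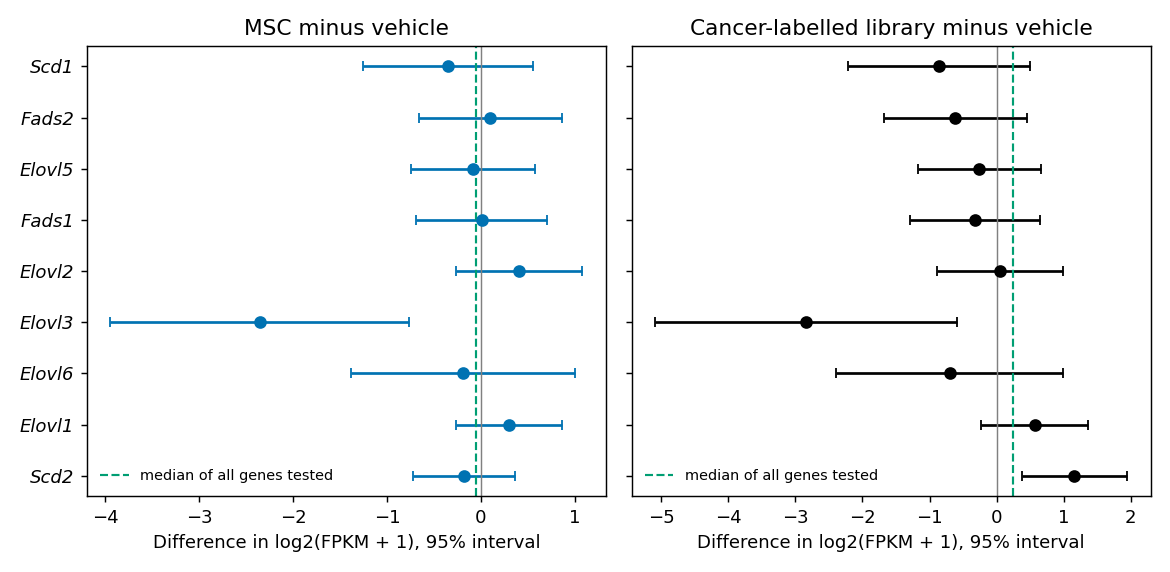
Differences in log2(FPKM + 1) with 95% intervals from limma for MSC minus vehicle (left, 3 against 3 libraries) and for the Cancer-labelled library minus vehicle (right, 1 against 3, with the spread of the other libraries). Dashed lines mark the median of all genes tested, -0.05 and 0.25; Elovl3 lies lowest in both panels, which share the vehicle libraries.

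The make-up of the elongase transcripts showed the same gene from within each library. Elovl3 made up 1.06%, 3.17% and 9.55% of the summed FPKM of the 5 elongases in MSC replicates 0, 1 and 2. It made up 7.95%, 28.6% and 19.98% in vehicle replicates 1, 3 and 4. As a share the groups overlapped, because vehicle replicate 1 was below MSC replicate 2 (4.59% ± 4.42 against 18.8% ± 10.4, SD, n = 3 each; exact two-sided permutation p = 0.2). Elovl5 held 44.5% to 58.9% of the sum in all 7 libraries. Elovl2 held 43.2% in MSC replicate 0, almost as much as Elovl5, and 14.9% to 28.1% elsewhere.

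**Figure D4:**
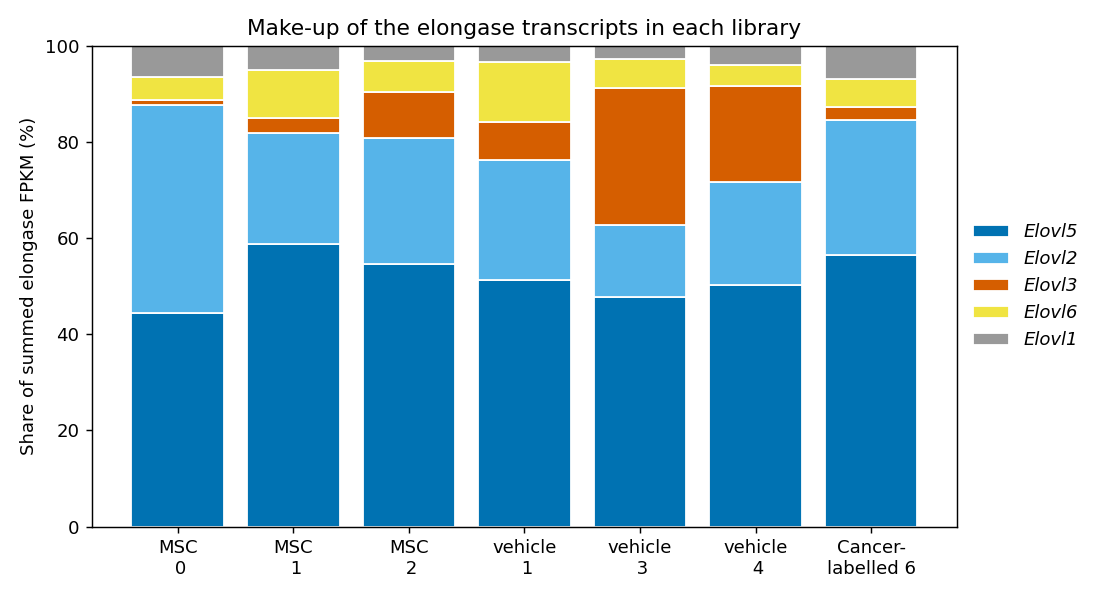
Share of each elongase in the summed FPKM of the 5 Elovl members, in percent, with 1 stacked bar per library. Elovl3 takes 28.6% and 19.98% in vehicle replicates 3 and 4 and under 10% in the other 5 libraries.

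Single libraries carried much of the variation. Vehicle replicate 1 was the highest vehicle library for 8 of the 9 members, all but Elovl3, and the highest of all 7 libraries for 5. MSC replicate 0 was the lowest MSC library for 5 members. The shares of all genes with these extremes were not counted, so the counts are not read as traits of the members. Vehicle replicate 1 also had the most genes at 1 FPKM or more of the vehicle libraries (10931 beside 10065 and 10236). Without vehicle replicate 1, the MSC and vehicle libraries were separated for 4 members (3 higher, 1 lower), beside 9.64% of all genes higher and 10.9% lower in this smaller split, and the log2 difference of Elovl6 turned to 0.37. Without MSC replicate 2 or without vehicle replicate 3, 2 members were separated, beside 19.1% and 18.3% of all genes. No member passed in limma over all genes in any of these fits.

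The second comparison set the Cancer-labelled vehicle library beside the 3 other vehicle libraries. It has no replicate of its own, so limma took the spread from the other libraries and assumed that the lone library varies like them. None of the 9 members passed (adjusted p in limma from 0.120 to 0.969), where 4.17% of the 12265 genes tested were called. Of those calls 488 were higher (3.98% of genes) and 23 lower (0.188%); with quantile normalization they were 318 and 65. The members with the largest log2 differences were Elovl3, at -2.84, and Scd2, at 1.16. The median log2 difference of all genes was 0.25 in this comparison, and it was -0.06 with libraries centred on their medians. The members' median was -0.32. The library lay above all 6 others for 2 members and below all 6 for 1, beside 46.5% and 4.88% of all genes. It lay above the 3 vehicle libraries for the same 2 members and below them for 3 (56.2% and 10.6% of all genes), and within the vehicle range for 4.

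Scd2 and Elovl1 were the members above all other libraries. Scd2 was at 9.28 FPKM in the Cancer-labelled library, 2.48 times the vehicle mean, and no other library exceeded 4.94 FPKM. The log2 difference was 1.16 ± 0.34 (SE; 95% interval 0.38 to 1.94; adjusted p = 0.120 in limma). Since Scd1 was at 2259 FPKM, below the vehicle libraries, Scd2 made up 0.409% of their sum, the highest share of the 7 libraries. Elovl1 was at 16.1 FPKM, level with MSC replicate 1 (log2 difference 0.57 ± 0.35, SE). Markers of bile duct cells were above all other libraries in this library for 7 of 7 genes, 6 of which passed in limma. Their summed level was 517 FPKM beside 48.03 to 165 in vehicle and 31.4 to 144 in MSC libraries. Of the stellate and fibroblast markers 6 of 8 tested, of the macrophage markers 4 of 8 and of the liver tumour and fetal markers 4 of 4 were also above all other libraries, with 0, 0 and 2 passing in limma. The share of all genes above all other libraries was 46.5%, and the macrophage count is near it. Reln, a stellate marker, was below all other libraries, and the macrophage markers Clec4f and Vsig4 had negative log2 differences (-1.27 and -0.75). Of the endothelial markers 2 of 7 and of the hepatocyte markers 1 of 8 were above all others. The tumour and fetal markers summed to 199.96 FPKM beside 55.1 to 62.5 in vehicle and 6.32 to 71.5 in MSC libraries. Most of that sum came from Ly6d (109.9 FPKM), Cd24a (43.9 FPKM) and Tspan8 (33.0 FPKM). Of the 7 listed genes, Afp, Gpc3 and Igf2 were too low to be tested. At 0.468, 0.761 and 0 FPKM they were not above their vehicle ranges. The macrophage markers summed to 218 FPKM beside 87.9 to 174 in vehicle and 57.95 to 201 in MSC libraries. The stellate and fibroblast markers summed to 116 FPKM, within the vehicle range of 63.6 to 125. The part of these cell types in the Scd2 and Elovl1 values was not tested.

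The other members were level with or below the vehicle libraries. Elovl3 was at 6.44 FPKM, below each of the vehicle libraries and between MSC replicates 0 and 1. Its log2 difference was -2.84 ± 0.98 (SE; 95% interval -5.09 to -0.60; adjusted p = 0.183 in limma). In a fit of the 4 vehicle-injected libraries alone, the adjusted p in limma was 0.0442, and Elovl3 was then the 1 member called, beside 4.57% of all genes (4.19% higher and 0.388% lower). Both comparisons use the same 3 vehicle libraries, so the low Elovl3 values in the MSC and Cancer-labelled libraries are not independent results. Fads2, at 190.1 FPKM, was below all 6 other libraries, and Fads1, at 77.3 FPKM, was within the vehicle range. The FPKM ratio of Fads2 to Fads1 was 2.46, lower than in each of the other 6 libraries. Elovl5 at 131, Elovl2 at 65.0 and Elovl6 at 13.0 FPKM were inside the vehicle range.

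Relatives and partners of these enzymes were described from 9 lists of 84 entries in all. For MSC minus vehicle, 0 of the 65 tested entries passed in limma, and 10 were lower without overlap and 0 higher (7.84% and 2.17% of all genes). The peroxisomal enzymes that shorten long polyunsaturated chains held 6 of those 10. Their member with the lowest p was Abcd3, a peroxisomal fatty acyl-CoA transporter, at 65.3 ± 11.5 FPKM in MSC and 116 ± 3.57 FPKM in vehicle libraries (SD, n = 3 each; adjusted p = 0.552 in limma). Among the partners of the elongation cycle, Hacd3, a dehydratase of that cycle, measured 73.1 ± 13.9 FPKM against 112 ± 23.7 FPKM (SD, n = 3 each; adjusted p = 0.822 in limma). It was lower in each MSC library, and the other 4 tested partners overlapped.

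Lipogenic genes and regulators were mixed in sign between MSC and vehicle libraries. Of 10 genes listed with fatty acid synthesis, not all of them synthesis enzymes, 5 had a negative and 5 a positive difference. None was separated. Acacb, the acetyl-CoA carboxylase of the mitochondrial surface, measured 10.1 ± 3.21 FPKM against 15.0 ± 5.33 FPKM (SD, n = 3 each). Of 15 tested regulators, 8 were negative and 7 positive, and 2 were lower without overlap. Insig1, which retains the SREBP escort protein in the endoplasmic reticulum, measured 27.3 ± 6.27 FPKM against 16.3 ± 11.0 FPKM (SD, n = 3 each; adjusted p = 0.908 in limma). In each of the other lists the lowest p belonged to Degs1, a sphingolipid desaturase, Cyb5r1, Agpat3, Cers2, a ceramide synthase for very long chains, and Mttp, needed for lipoprotein assembly. Their log2 differences were -0.12, 0.34, -0.18, -0.11 and -0.47, and none of them passed.

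In the Cancer-labelled library, 3 of 73 tested entries passed, all higher. This is 4.11% of the entries, near the 3.98% of all genes that were called higher, and is not read as a result about the lists. Elovl7, an elongase outside the 9 members, was at 4.84 FPKM beside 0.463 ± 0.409 FPKM in vehicle libraries (SD, n = 3; adjusted p = 0.0159 in limma). Mboat1 and Lpcat4, which acylate lysophospholipids, were at 3.19 and 2.58 FPKM beside 0.159 ± 0.119 and 0.456 ± 0.112 FPKM (SD, n = 3; adjusted p = 0.00230 and 0.0147 in limma). With a pseudocount of 0.1 none of these 3 passed (adjusted p from 0.115 to 0.225 in limma). They were above all other libraries together with the bile duct markers given above, whose part in these values was not tested either. Fads3 and Scd3, further relatives, were at 6.64 and 0.803 FPKM, inside the vehicle ranges. Degs1, at 35.4 FPKM, was above all other libraries without passing. With Elovl7 this makes 2 of the 4 tested relatives, beside 46.5% of all genes. Degs2 and Elovl4, too low to be tested, were also highest in this library, at 0.933 and 0.261 FPKM. Of the 73 entries, 17 were above and 12 below all other libraries, or 23.3% and 16.4% beside 46.5% and 4.88% of all genes. Of the genes listed with fatty acid synthesis 8 of 10 were negative, beside 22.8% of all genes, and 4 were below the 3 vehicle libraries. Of the regulators 7 of 15 were below the 3 vehicle libraries and 4 above them, beside 10.6% and 56.2% of all genes. The list of peroxisomal chain shortening had 8 of 10 negative, with 6 below the 3 vehicle libraries and 1 above. Low values in this library were thus not particular to the lipogenic lists. Named as the lowest p of their lists, Acacb, at 6.13 FPKM, and Mogat1, at 0.718 FPKM, were below all other libraries (log2 differences -1.11 and -1.20). Hacd4, Cyb5r1, Nr1h2 and Cers5 were above all others (0.62, 0.79, 0.50 and 0.99 on the log2 scale). None of these 6 passed.

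Profiles across the 7 libraries were compared for the 7 members whose log2 values ranged by at least 1, against 7448 genes with a mean of at least 2 FPKM. Likeness was the root mean square difference of centred log2(FPKM + 1), as a description with no test. The genes nearest to Elovl6 were Hcn3 (0.239), Fasn (0.284) and Pklr (0.293). Fasn encodes fatty acid synthase and Pklr the pyruvate kinase of liver. Fasn measured 15.9, 45.1 and 18.1 FPKM in MSC replicates 0, 1 and 2, 52.5, 19.1 and 9.86 FPKM in vehicle replicates 1, 3 and 4 and 21.04 FPKM in the Cancer-labelled library. As with Elovl6, vehicle replicate 1 was the highest and MSC replicate 1 the next. Among co-members, Fads2 ranked 11, Fads1 15 and Elovl5 28 in likeness to Elovl6.

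Fads2 was nearest to Tkfc (0.117), a kinase of fructose-derived triose, then to Fads1 (0.129), which ranked 2, and to the cholesterol synthesis enzyme Dhcr7 (0.135) and the liver glycogen phosphorylase Pygl (0.144). Fads1 was nearest to Rtp4 (0.109), Pygl (0.125) and Fads2 (0.129, rank 3). Scd1 was nearest to Ubtd1 (0.152), the sterol reductase Tm7sf2 (0.158) and Acacb (0.183). Elovl2 was nearest to Snd1 (0.098), Mlec (0.098) and Magt1 (0.108), of which Mlec and Magt1 act in glycoprotein synthesis in the endoplasmic reticulum. Scd2 was nearest to Oxct1 (0.122), Lmo2 (0.126) and Micall1 (0.143). Like Scd2, all of them were highest in the Cancer-labelled library, which largely follows from choosing them by likeness. Of all genes tested, 46.5% were above all other libraries there. Scd1 itself ranked 7072 in likeness to Scd2, so the neighbours on chromosome 19 had unlike profiles.

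Elovl3 had no close match. Its nearest genes were Cyp4a12b (0.704), a fatty acid hydroxylase of male mouse liver, Oat (0.856), ornithine aminotransferase, and Cyp2e1 (0.859), a cytochrome P450 of pericentral hepatocytes. Cyp4a12b measured 4.80, 21.8 and 18.6 FPKM in MSC replicates 0, 1 and 2, 27.3, 93.7 and 25.3 FPKM in vehicle replicates 1, 3 and 4 and 13.6 FPKM in the Cancer-labelled library. As for Elovl3, MSC replicate 0 was lowest and vehicle replicate 3 highest. Cyp4a12b has close copies in its cluster and may share reads with them.

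**Figure D5:**
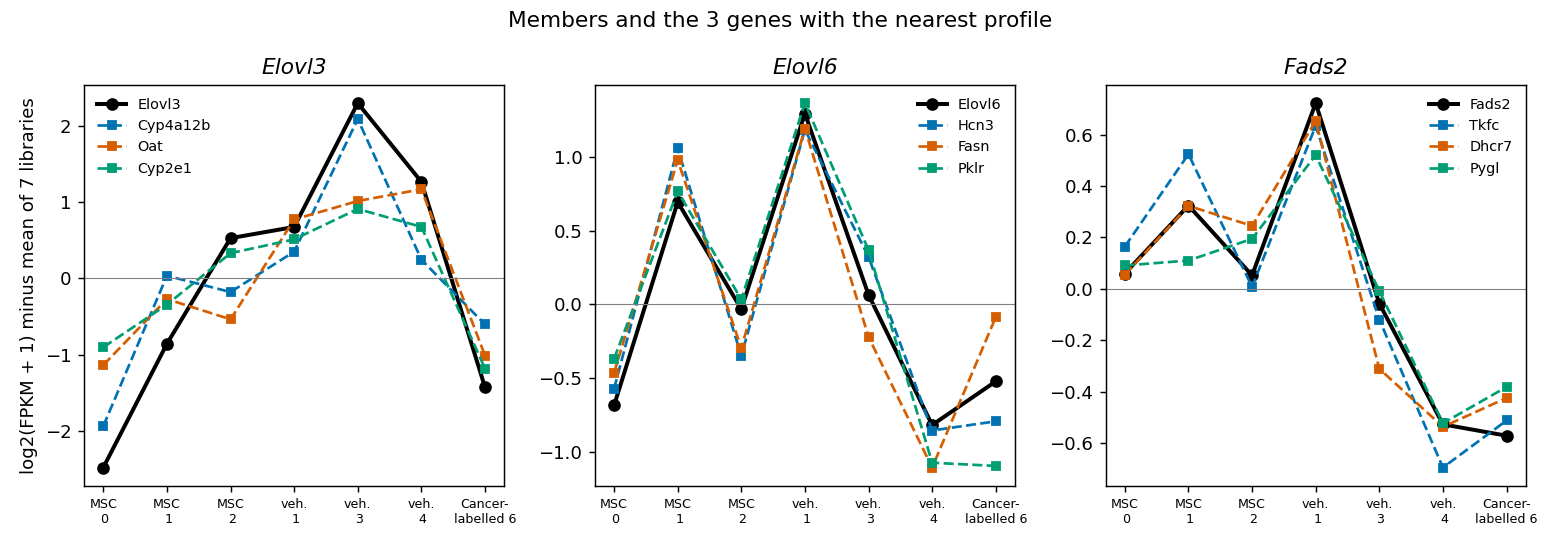
Centred log2(FPKM + 1) of Elovl3, Elovl6 and Fads2 (black) and of the 3 genes nearest to each outside the 9 members (dashed) across the 7 libraries; the lines only join the points, since libraries have no order. Elovl6 and Fads2 and their nearest genes peak in vehicle replicate 1, and Elovl3 peaks in vehicle replicate 3.

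Promoter windows from RefSeq (GRCm38.p6, 250 bases before to 50 after a start site) were matched by symbol for 5 of the 9 members. The windows of Elovl6, Elovl5 and Fads2 are shown because these genes had their highest level in vehicle replicate 1. Motifs were searched on both strands and are in capitals: CCAAT, the palindromic E-box CACGTG, the GC box GGGCGG, the nuclear receptor half-site AGGTCA and TCACNCCAC, a sterol regulatory element. No matches overlap in these 3 windows.
Elovl6 (chr3:129532136-129532435, plus strand): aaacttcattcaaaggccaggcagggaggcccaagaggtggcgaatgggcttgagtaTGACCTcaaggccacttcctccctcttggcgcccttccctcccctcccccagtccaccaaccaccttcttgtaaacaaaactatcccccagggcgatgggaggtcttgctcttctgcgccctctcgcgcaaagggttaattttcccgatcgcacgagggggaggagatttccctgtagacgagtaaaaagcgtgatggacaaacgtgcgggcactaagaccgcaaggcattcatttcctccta
Elovl5 (chr9:77917115-77917414, plus strand): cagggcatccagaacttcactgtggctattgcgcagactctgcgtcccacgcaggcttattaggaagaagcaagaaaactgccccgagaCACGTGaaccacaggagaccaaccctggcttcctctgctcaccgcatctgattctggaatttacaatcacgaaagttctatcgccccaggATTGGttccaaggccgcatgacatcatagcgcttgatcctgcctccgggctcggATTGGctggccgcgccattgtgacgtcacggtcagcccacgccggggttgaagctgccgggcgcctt
Fads2 (chr19:10101454-10101753, minus strand): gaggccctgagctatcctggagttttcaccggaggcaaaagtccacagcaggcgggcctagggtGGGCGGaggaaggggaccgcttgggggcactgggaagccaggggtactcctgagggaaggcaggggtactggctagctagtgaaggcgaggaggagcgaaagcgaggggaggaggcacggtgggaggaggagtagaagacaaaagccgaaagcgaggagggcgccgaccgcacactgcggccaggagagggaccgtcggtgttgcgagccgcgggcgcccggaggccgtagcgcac

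The Elovl5 window holds CCAAT on the opposite strand (ATTGG) at positions 180 and 234 and CACGTG at position 90, counted from its 5′ end. The Elovl6 window holds the half-site on the opposite strand (TGACCT) at position 58, and the Fads2 window holds GGGCGG at position 65. None of the 3 holds TCACNCCAC. Of the 32851 windows in the table, 37.4% hold CCAAT, 35.7% GGGCGG, 16.3% AGGTCA, 7.15% CACGTG and 1.24% TCACNCCAC. The 3 windows do not share a searched motif.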

How the data were processed

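The deposited table holds FPKM made by the authors, 1 column for each of the 7 libraries. The submitters' processing notes name StringTie 2.1.6, HISAT2 2.2.1, cutadapt 1.9 and FastQC 0.11.9, and mm10 beside GRCm38, without saying which tool did what. Only 10.03% to 11.6% of low values lay at whole multiples of a step or midway between them. The tolerance was 0.02 of the distance from a multiple to a midpoint. No counts were therefore recovered and no count test was run. Fragment numbers are estimates from the longest listed transcript.

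Groups followed the labels. Values were tested as log2(FPKM + 1), which understates the change of low genes, with limma 3.58.1 (lmFit, eBayes with trend; R 4.3.3) and Benjamini-Hochberg adjustment over all genes that reached 1 FPKM in 3 or more libraries. The Cancer-labelled fit held 3 groups over 7 libraries and also kept genes at 1 FPKM in that library. Single values had an exact two-sided permutation test in scipy 1.17.1. Simulated data with known changes were used to test the limma fits. Exon overlaps came from GENCODE M21. No pair of libraries was identical.

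Members, lists and tests were chosen with earlier results of these data known. Named are the 9 members, list genes past the threshold or of lowest p in a list, and the 3 nearest profiles per member; a few genes that meet this rule are not reported here. The alternatives tried were the pseudocount, the filter, scaling, limma settings and left-out libraries; those for list genes were added after seeing the data.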

Additional observations from a re-analysis of the deposited data

How the results depend on the processing

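For MSC minus vehicle, no member passed in limma under any of the 19 alternatives, and Elovl3 kept a negative log2 difference in all of them (-3.08 to -1.58; adjusted p from 0.296 to 0.9999). The number of members without overlap was 0 with median centring and 1 to 4 when 1 library was left out, beside 11.0% and 15.5% to 28.9% of all genes. The count of all genes past the threshold was 2; it was 1 to 8 when 1 library was left out, 1 without MSC replicate 0 and vehicle replicate 1 together and 1 when the Cancer-labelled library was counted as vehicle. Small differences changed sign, and the cause was not tested. As TPM, Fads1 gave -0.10 and Fads2 -0.0040. Elovl5 gave 0.032 with quantile normalization and 0.0081 without mitochondrially encoded genes. When 1 library was left out, the log2 difference ran from -0.27 to 0.33 for Fads1, -0.19 to 0.44 for Fads2, -0.41 to 0.0076 for Scd2, -0.29 to 0.13 for Elovl5, -0.69 to 0.37 for Elovl6 and -0.36 to 0.066 for Degs1. Without MSC replicate 0 and vehicle replicate 1 together, Elovl5 gave 0.31, Scd1 0.031 and Elovl6 0.71. In the same way the differences in share or ratio ran from -0.017 to 0.035 percentage points for Scd2, -0.11 to -0.08 for the log2 ratio of Fads1 to Fads2 and -19.7 to -9.38 percentage points for Elovl3.

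For the Cancer-labelled library, the 511 genes past the threshold became 13 at a pseudocount of 0.1, 838 at 5, 1035 without a filter, 80 with a filter at 5 FPKM (fewer genes tested), 316 as TPM, 267 to 631 when 1 library was left out and 1032 without MSC replicate 0 and vehicle replicate 1 together. The count of members past the threshold was 0 in all settings but the fit of the 4 vehicle-injected libraries, where it was 1 (Elovl3) and 4.57% of all genes were called. Elovl2 turned to -0.27 with median centring and ran from -0.11 to 0.35 when 1 library was left out. Fads1 ran from -0.60 to 0.0058 when 1 library was left out and gave 0.0058 without MSC replicate 0 and vehicle replicate 1 together. Scd2 stayed positive under all 18 alternatives (0.72 to 1.35; adjusted p from 0.0551 to 0.252 in limma). Cers5 passed at a pseudocount of 5 (0.41), without vehicle replicate 1 (1.17) and without that library and MSC replicate 0. Mogat1 passed with quantile normalization (-1.81).

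No paired analysis was possible because the MSC and vehicle groups share only replicate number 1. The depth estimate rests on a step seen in a minority of values, so no counting intervals are given.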
